A study of Homo sapiens with 12 samples.

Results

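The TCP1 chaperonin, also called TRiC or CCT, is the ATP-driven folding machine of the eukaryotic cytosol. It is a pair of stacked rings that close over a newly made protein, and every ring is built from the same 8 related subunits, the products of TCP1, CCT2, CCT3, CCT4, CCT5, CCT6A, CCT7 and CCT8. Actin and tubulin are its best known clients; the prefoldin complex hands them over, phosducin-like proteins act as cofactors, and released tubulin passes to the tubulin folding cofactors. Since each subunit has a fixed place in the ring, the subunits are usually described as being made in matched amounts.

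The 8 subunit genes were followed through every probe of the unnormalized bead table whose gene symbol in the array annotation was 1 of these names. This gave 14 probes of 48803 on the array, with 3 each for TCP1 and CCT7, 2 each for CCT3 and CCT6A, and 1 each for CCT2, CCT4, CCT5 and CCT8. All 14 were among the 15444 probes tested, which had a detection p-value under 0.01 on at least 3 of the 12 arrays. Of the 14, 11 were detected on all 12 arrays, CCT6A ILMN_1719611 on 11, and TCP1 ILMN_1660661 and TCP1 ILMN_2313434 on 10.

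The study asked whether an excess of ALKBH7 or ALKBH4, both members of the AlkB family of iron-dependent dioxygenases, changes gene expression. It used derivatives of HEK293, an immortal line grown from human embryonic kidney, in which a FLAG-tagged ALKBH7 or ALKBH4 lay at one integration site under a doxycycline-responsive promoter, each line having been grown from a hygromycin-resistant colony. The 4 groups were the ALKBH7 line induced with 2 µg/ml doxycycline, the ALKBH7 line uninduced, the ALKBH4 line induced at the same dose, and the ALKBH4 line uninduced, with 3 arrays each and harvest 48 h after induction. Uninduced cells carried the same transgene, and no doxycycline-treated line without a transgene was analysed here, so within a line the agent and the expressed protein cannot be told apart. Whether the replicates came from separate cultures is not stated in the labels, and the p-values therefore reflect only the spread between these arrays, which may be technical.

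Each array had between 25.3% and 30.7% of its probes detected. The median unnormalized intensity, in arbitrary fluorescence units, lay between 98.9 and 121 on the ALKBH7 line's arrays and between 45.6 and 61.6 on the ALKBH4 line's arrays. All levels below are log2 intensities after the 12 arrays were quantile normalized together, and since probes differ in how brightly they read the same RNA, a brighter probe is not taken to show more RNA. The ALKBH7 transcript was at 12.88, 12.94 and 13.32 in induced ALKBH7 cells and at 9.66, 9.19 and 9.12 in uninduced ones (log2 fold change 3.72 ± 0.17 (SE), limma adjusted p = 1.0e-07). The ALKBH4 probe was at 7.59, 7.81 and 7.27 in induced ALKBH4 cells and at 7.82, 7.76 and 7.44 in uninduced ones, and so did not show the induction. According to the study this probe reads an untranslated part of ALKBH4, so it does not check the transgene, whose induction was verified there by qPCR and Western blotting, not analysed here. The epithelial and neuronal markers KRT8, KRT18 and NEFL, known from HEK293 cells, were detected on 12 arrays, and NEFM on 1. Of the fibroblast genes, COL1A1 was detected on 11 arrays, COL3A1 on 1, and COL1A2 and DCN on 0, while the blood genes PTPRC, CD3E and HBB were detected on 0.

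One array stood apart. Uninduced replicate 1 of the ALKBH7 line correlated less with its own group (mean r = 0.940 over the tested probes) than with the 3 induced arrays of that line (mean r = 0.967), while its ALKBH7 level stayed in the uninduced range. At 10 of the 14 chaperonin probes it lay nearer the induced mean than the mean of uninduced replicates 2 and 3, against 59.4% of all tested probes. Nearer did not always mean alike. At CCT8, for example, it was at 12.35, below the induced arrays at 13.00 to 13.03. For ALKBH7 induction the chaperonin probe values that this array moved most are given with and without it.

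The 3 TCP1 probes carried the same transcript in the annotation (NM_030752). The CCT3 probes were annotated to different transcripts, NM_005998 for ILMN_2334989 and NM_001008800 for ILMN_1651828, and so were the CCT6A probes, NM_001009186 for ILMN_1722502 and NM_001762 for ILMN_1719611. For CCT7, ILMN_1662954 and ILMN_1703718 shared NM_006429, and ILMN_2341793 was annotated to NM_001009570. Probe sequences and positions were not used here, so the exon a probe lies in is not given, and cross-hybridization to pseudogenes or to CCT6B, the testis-expressed copy of CCT6A, was not tested.

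Since chaperonin genes are targets of the heat shock factor HSF1, the stretch around the core inverted repeat of its binding element was read from the RefSeq promoter windows of build GRCh38.p14, which span 250 bases before to 50 after a gene start and were held for all members but CCT6A. Both orientations of the repeat, GAANNTTC and TTCNNGAA, each of which is its own reverse complement, were searched on both strands. The first was in the windows of TCP1 and CCT2 and in 6.77% of all 35097 promoters, and the second was in that of CCT4 and in 7.74%. The matched stretches are shown 5′ to 3′ on the gene's strand with the repeat in capitals, for chr6:159789815-159789844 on the minus strand, chr12:69585789-69585818 on the plus strand and chr2:61888607-61888629 on the minus strand.
TCP1: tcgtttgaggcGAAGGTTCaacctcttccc
CCT2: cccggagcgaaGAAATTTCtagtgtgggac
CCT4: ccggcgccgctTTCTGGAAggtt
A match is a description of the letters and not an occupied site, and of these 3 genes TCP1 alone had probes that passed on induction of ALKBH7. CCAAT, the box bound by NF-Y, was in the windows of 4 of the 7 genes and in 34.6% of all promoters.

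On induction of ALKBH7 the chaperonin probes did not move as a block. Of the 14, 4 rose, 1 fell and 9 did not pass limma's test at a Benjamini-Hochberg adjusted p of 0.05. The probes that rose were TCP1 ILMN_1776347, TCP1 ILMN_2313434, CCT3 ILMN_1651828 and CCT6A ILMN_1722502, by 0.43 to 1.00 on the log2 scale, and the one that fell was CCT7 ILMN_1662954. The called share was 35.7% against 24.0% of all tested probes (11.8% higher and 12.2% lower), a difference of 1 or 2 probes among 14. The median log2 fold change was 0.14 over the 14 probes and 0.02 over all tested probes. The ranges of the induced and the uninduced arrays were separate at 7 of the 14 probes, 5 higher and 2 lower, against 36.7% of all tested probes (19.8% higher and 17.0% lower).

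**Figure D1:**
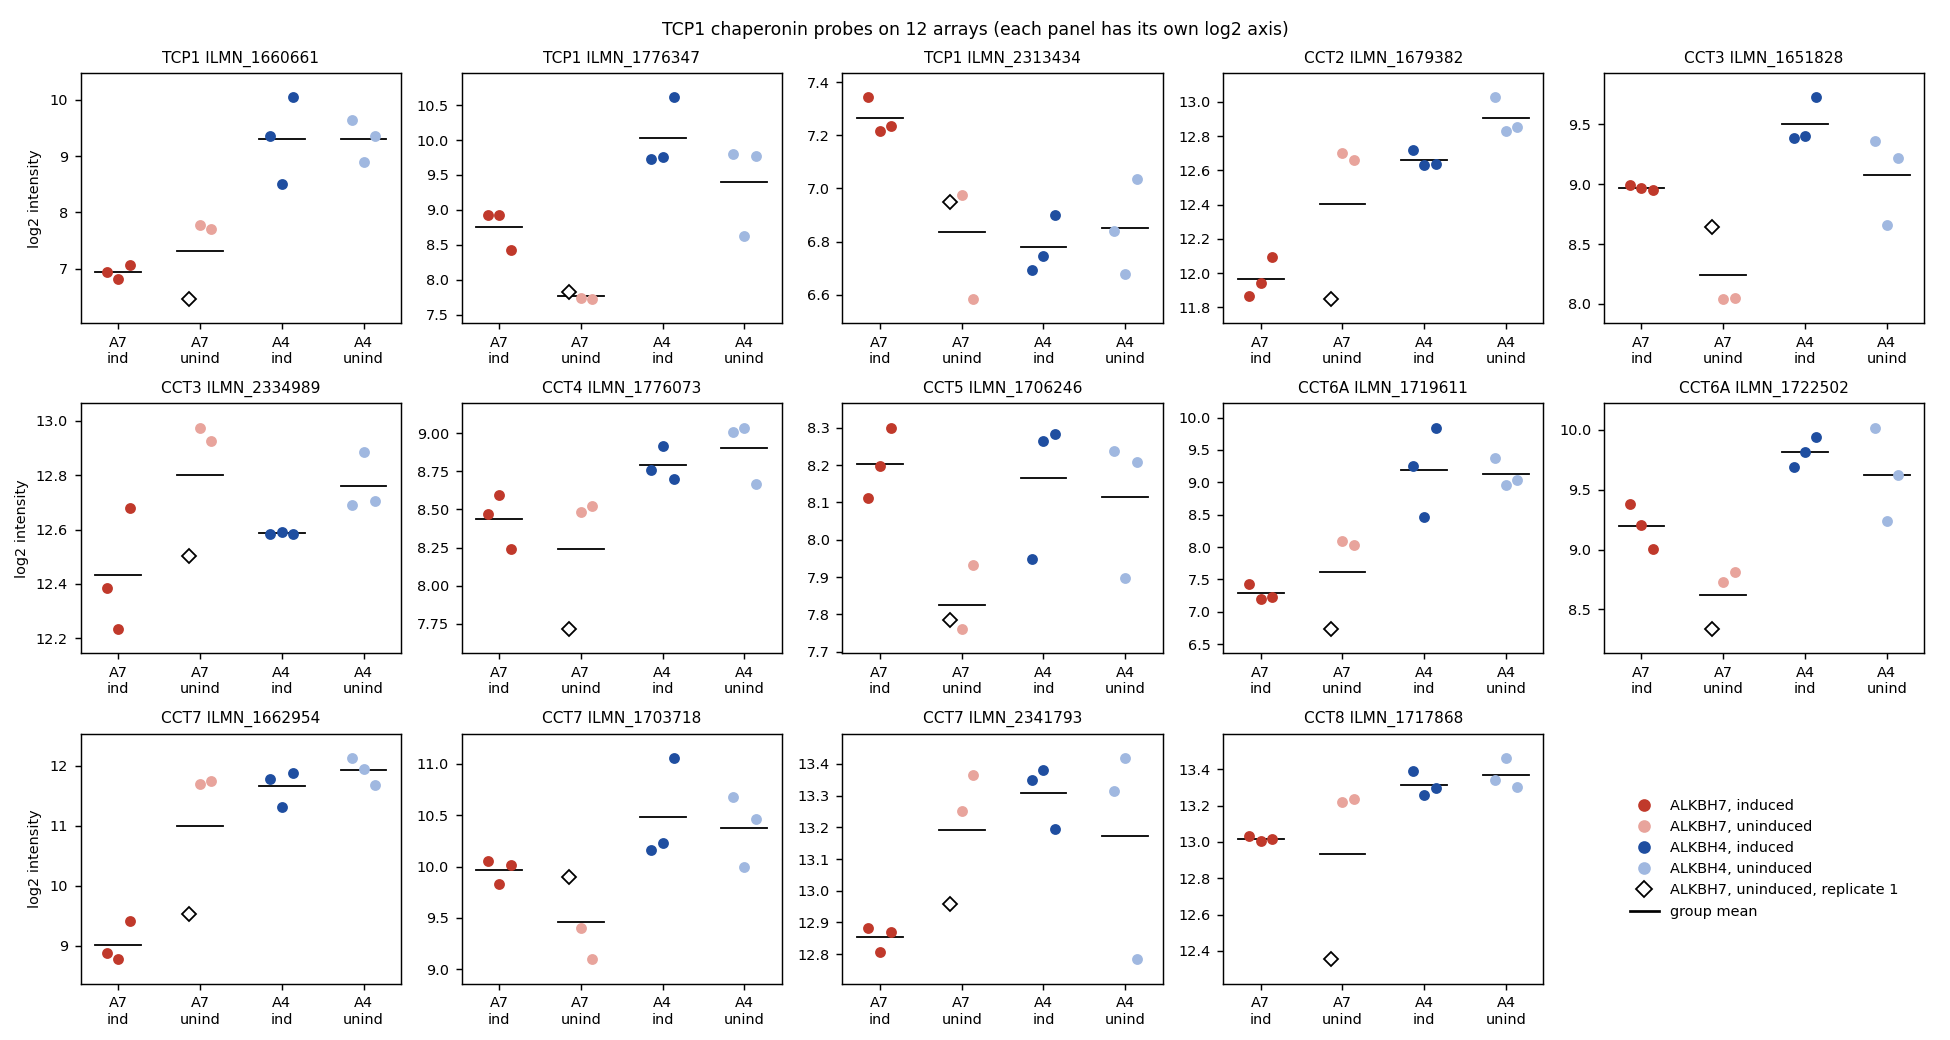
Log2 intensity of the 14 chaperonin probes on each of the 12 arrays (vertical axes, one scale per panel), with the groups ALKBH7 induced (A7 ind), ALKBH7 uninduced (A7 unind), ALKBH4 induced (A4 ind) and ALKBH4 uninduced (A4 unind); points are arrays, bars group means, and the open diamond is uninduced replicate 1 of the ALKBH7 line. At CCT7 ILMN_1662954 the 3 induced ALKBH7 arrays lie between 8.77 and 9.41, and the diamond at 9.54 is closer to them than to the other uninduced arrays at 11.69 and 11.74.

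CCT7, the eta subunit, was read by 3 probes, of which 1 passed. The probe ILMN_1662954 was at 8.87, 8.77 and 9.41 in induced ALKBH7 cells and at 9.54, 11.69 and 11.74 in uninduced ones. The groups did not overlap, but the lowest uninduced array was only just above the highest induced one. The change was -1.97 ± 0.44 (SE) on the log2 scale, or 3.93-fold lower (limma adjusted p = 0.00851). It kept its call in each of the 12 fits that left out 1 array, with changes between -2.70 and -1.60. Without uninduced replicate 1 it was -2.70 (limma adjusted p = 1.11e-06), and with replicate 1 as the only uninduced array it was -0.52 (limma adjusted p = 0.220).

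The probe ILMN_1703718, annotated to the same CCT7 transcript, was at 10.05, 9.83 and 10.01 in induced cells and at 9.89, 9.40 and 9.10 in uninduced ones. Uninduced replicate 1 lay within the induced range here, and the change of 0.50 ± 0.25 (SE) did not pass (limma adjusted p = 0.162). Without that array it was 0.72 (limma adjusted p = 0.0274). The third probe, ILMN_2341793, was at 12.88, 12.81 and 12.87 in induced cells and at 12.96, 13.25 and 13.37 in uninduced ones. The groups did not overlap, and the change of -0.34 ± 0.17 (SE) did not pass (limma adjusted p = 0.149). Without replicate 1 it was -0.46 (limma adjusted p = 0.0351), so that the CCT7 probes then passed in opposite directions.

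TCP1, the alpha subunit after which the particle is named, had 2 probes that rose. The probe ILMN_1776347 was at 8.93, 8.93 and 8.42 in induced ALKBH7 cells and at 7.82, 7.74 and 7.73 in uninduced ones. All induced arrays were above all uninduced arrays, and here uninduced replicate 1 lay with the other uninduced arrays. The change was 1.00 ± 0.30 (SE), or 2.00-fold (limma adjusted p = 0.0292). Without uninduced replicate 2 or 3, or induced replicate 1 or 2, it lay between 0.91 and 0.99 and the call was lost (limma adjusted p between 0.0741 and 0.112).

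The dim TCP1 probe ILMN_2313434 was at 7.34, 7.22 and 7.24 in induced cells and at 6.95, 6.97 and 6.58 in uninduced ones. The induced arrays were all higher by a narrow margin, with a change of 0.43 ± 0.14 (SE, limma adjusted p = 0.0422). The call was lost without any 1 of 8 arrays, all 3 induced ALKBH4 arrays among them (limma adjusted p between 0.0507 and 0.162). The TCP1 probe ILMN_1660661 was at 6.94, 6.81 and 7.07 in induced cells and at 6.46, 7.79 and 7.71 in uninduced ones. Its uninduced arrays lay on both sides of the induced ones, and the change of -0.38 ± 0.37 (SE) did not pass (limma adjusted p = 0.482). It was -0.81 without uninduced replicate 1 (limma adjusted p = 0.0503).

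CCT3, the gamma subunit, was split between its probes. ILMN_1651828 was at 9.00, 8.97 and 8.95 in induced ALKBH7 cells and at 8.64, 8.04 and 8.05 in uninduced ones. The induced arrays lay close together and above all uninduced arrays, and the change was 0.73 ± 0.20 (SE), or 1.65-fold (limma adjusted p = 0.0201). Leaving out induced replicate 1 or 2, or uninduced replicate 2 or 3, ended the call (limma adjusted p between 0.0715 and 0.0819). Without uninduced replicate 1 the change was 0.93 (limma adjusted p = 8.83e-04). ILMN_2334989 was at 12.39, 12.23 and 12.68 in induced cells and at 12.50, 12.98 and 12.93 in uninduced ones. These groups overlapped through uninduced replicate 1 and induced replicate 3, and the change of -0.37 ± 0.15 (SE) did not pass (limma adjusted p = 0.0925). Without uninduced replicate 1 it was -0.52 (limma adjusted p = 0.00718), and without induced replicate 3 it was -0.49 (limma adjusted p = 0.0486).

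CCT6A, the zeta subunit, also had probes of opposite sign. ILMN_1722502 was at 9.38, 9.21 and 9.00 in induced ALKBH7 cells and at 8.33, 8.73 and 8.81 in uninduced ones. The groups did not overlap, and the change was 0.57 ± 0.19 (SE), or 1.49-fold (limma adjusted p = 0.0457). This call was the least stable of the 5, being lost without any 1 of 9 arrays (limma adjusted p between 0.0564 and 0.167). Without uninduced replicate 1 the change was 0.43 (limma adjusted p = 0.0781). ILMN_1719611 was at 7.43, 7.19 and 7.24 in induced cells and at 6.73, 8.09 and 8.03 in uninduced ones. Uninduced replicate 1 was below and the other uninduced arrays above every induced array, and the change was -0.33 ± 0.35 (SE, limma adjusted p = 0.516). Without replicate 1 it was -0.77 (limma adjusted p = 0.0339).

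None of the 4 subunits with a single probe passed. CCT5, the epsilon subunit, which is mutated in a hereditary sensory neuropathy, was at 8.11, 8.20 and 8.30 in induced ALKBH7 cells and at 7.79, 7.76 and 7.93 in uninduced ones. All induced arrays were higher, by 0.38 ± 0.14 (SE), which did not pass (limma adjusted p = 0.0619). CCT2, the beta subunit, was at 11.86, 11.94 and 12.10 in induced cells and at 11.85, 12.70 and 12.66 in uninduced ones. Replicate 1 of the uninduced arrays was level with the induced ones, and the change was -0.44 ± 0.19 (SE, limma adjusted p = 0.107). Without that array CCT2 fell by 0.71 (limma adjusted p = 3.3e-04).

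CCT4, the delta subunit, was at 8.47, 8.60 and 8.24 in induced cells and at 7.71, 8.48 and 8.52 in uninduced ones, a change of 0.19 ± 0.20 (SE, limma adjusted p = 0.502). CCT8, the theta subunit, was at 13.03, 13.00 and 13.02 in induced cells and at 12.35, 13.22 and 13.24 in uninduced ones, a change of 0.08 ± 0.19 (SE, limma adjusted p = 0.784). In both, uninduced replicate 1 was the lowest of the 6 arrays and the groups overlapped. Without it the changes were -0.07 for CCT4 and -0.21 for CCT8, so the direction of each turned with 1 array. The 95% intervals of all 6 arrays ran between -0.24 and 0.62 for CCT4 and between -0.33 and 0.50 for CCT8.

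Leaving out uninduced replicate 1 gave 9 calls, 4 higher and 5 lower, while 44.2% of all tested probes were called. Leaving out uninduced replicates 2 and 3 together, which was added after seeing the data, gave 3 calls, all higher, and 12.8% of all tested probes. These 3 were CCT4 by 0.72 (limma adjusted p = 0.0295), CCT8 by 0.67 (limma adjusted p = 0.0141) and CCT6A ILMN_1722502 by 0.86. The count of 5 fell to 1, CCT7 ILMN_1662954, without uninduced replicate 2, without uninduced replicate 3, or without induced replicate 1 or 2, where between 1250 and 2155 of the 15444 tested probes were called. It was 3 without any 1 of the induced ALKBH4 arrays, which enter only through the shared estimate of the spread. With the arrays scaled to 1 median in place of quantile normalization, none of the 14 probes and 1 of all 15444 tested probes passed, and CCT3 ILMN_2334989 and CCT7 ILMN_2341793 turned to 0.11 each.

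On induction of ALKBH4 none of the 14 probes passed, against 0% of all tested probes by limma's adjusted p. At an unadjusted p under 0.05, 0 of the 14 probes and 2.43% of all tested probes were counted. The largest value was that of TCP1 ILMN_1776347, at 9.73, 9.76 and 10.61 in induced ALKBH4 cells and at 9.80, 8.62 and 9.78 in uninduced ones. The groups overlapped, and the change was 0.63 ± 0.30 (SE, 95% interval -0.01 to 1.27, limma adjusted p = 0.999).

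The groups did not overlap at 3 probes, against 10.0% of all tested probes. CCT3 ILMN_1651828 was at 9.39, 9.40 and 9.72 in induced ALKBH4 cells and at 9.36, 8.66 and 9.22 in uninduced ones, a change of 0.42 ± 0.20 (SE). CCT2 was at 12.72, 12.63 and 12.64 in induced ALKBH4 cells and at 13.03, 12.83 and 12.86 in uninduced ones, a change of -0.24 ± 0.19 (SE). CCT3 ILMN_2334989 was at 12.58, 12.59 and 12.58 in induced ALKBH4 cells and at 12.69, 12.88 and 12.70 in uninduced ones, a change of -0.17 ± 0.15 (SE). The limma adjusted p was 0.999 for all 3, so the CCT3 probes took opposite signs without passing. CCT7 ILMN_1662954 was at 11.78, 11.31 and 11.89 in induced ALKBH4 cells and at 12.14, 11.96 and 11.68 in uninduced ones. The groups overlapped, and the change was -0.27 ± 0.44 (SE, 95% interval -1.22 to 0.69). The other 9 probes had values between -0.11 and 0.19.

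**Figure D2:**
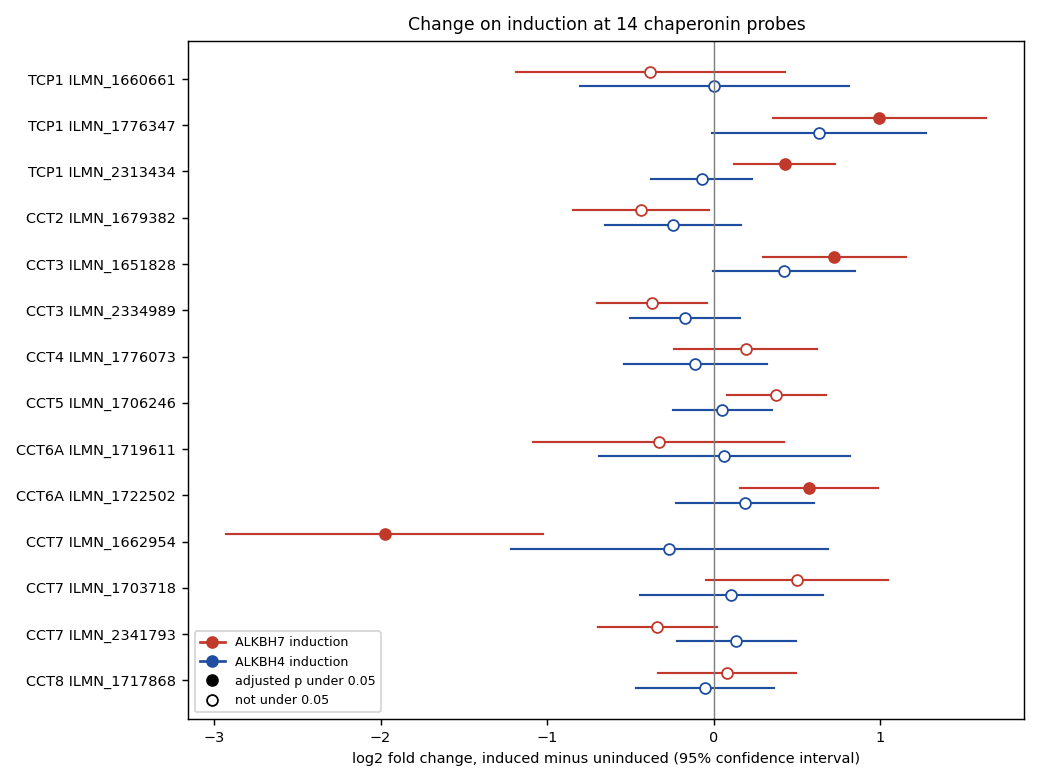
Log2 fold change of each of the 14 chaperonin probes, induced minus uninduced (horizontal axis), in the ALKBH7 line (red) and the ALKBH4 line (blue), with 95% confidence intervals from limma; filled points have an adjusted p under 0.05. The 5 filled points are all in the ALKBH7 line, and CCT7 ILMN_1662954 at -1.97 is the lowest value of either line.

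Whether the responses of the lines differed was tested directly. None of the 14 probes passed for the difference between the ALKBH7 and the ALKBH4 response, against 0.0712% of all tested probes. At an unadjusted p under 0.05 there were 2 chaperonin probes and 16.9% of all tested probes. CCT7 ILMN_1662954 had a difference of -1.71 ± 0.62 (SE, limma adjusted p = 0.196) and TCP1 ILMN_2313434 one of 0.50 ± 0.20 (SE, limma adjusted p = 0.231). No chaperonin probe was thus shown to respond differently in the 2 lines, although 5 were called in one line and none in the other. Without uninduced replicate 1 of the ALKBH7 line the difference passed at CCT7 ILMN_1662954, at -2.44 ± 0.28 (SE, limma adjusted p = 1.32e-04), and at CCT2, at -0.47 ± 0.16 (SE, limma adjusted p = 0.0495), and at 21.6% of all tested probes.

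Since 4 of the 8 genes had more than 1 probe, the disagreement between probes was tested as such. That the CCT7 probes disagree was known before this test was planned. The p-values of the CCT7 pairs therefore describe a disagreement already seen and are no independent evidence for it. For every pair of probes of 1 gene the dimmer probe's log2 intensity was subtracted from the brighter one's on each array, and limma was fitted to these differences over all 3343 pairs of 2336 genes. On induction of ALKBH7, 5 of the 8 chaperonin pairs passed, CCT7 pairs among them, against 37.1% of all pairs. Unequal response of 2 probes of a gene was thus common on these arrays.

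Among the CCT7 probes, ILMN_2341793 minus ILMN_1662954 changed by 1.64 ± 0.40 (SE, limma adjusted p = 0.00927) and ILMN_1662954 minus ILMN_1703718 by -2.48 ± 0.58 (SE, limma adjusted p = 0.00784). The pair of ILMN_2341793 and ILMN_1703718 changed by -0.84 ± 0.35 (SE) and did not pass (limma adjusted p = 0.0748). Both pairs that held the probe that fell were thus called, including the pair with the probe annotated to its own transcript. This describes the disagreement known beforehand. With uninduced replicate 1 as the only uninduced array of the ALKBH7 line, the changes were 0.41 and -0.59 for the pairs that had passed, and none of the 8 chaperonin pairs passed.

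The CCT3 pair, ILMN_2334989 minus ILMN_1651828, changed by -1.09 ± 0.29 (SE, limma adjusted p = 0.0136). The CCT6A pair, ILMN_1722502 minus ILMN_1719611, changed by 0.90 ± 0.30 (SE, limma adjusted p = 0.0329). For TCP1, ILMN_1776347 minus ILMN_1660661 changed by 1.38 ± 0.36 (SE, limma adjusted p = 0.0126). These 3 pairs lost their calls without uninduced replicate 2 or 3 or induced replicate 1 or 2 of the ALKBH7 line (limma adjusted p between 0.0504 and 0.131). The dimmer probes of the CCT6A and TCP1 pairs were near background on some of these arrays. TCP1 ILMN_1660661 was detected on 2 of 3 arrays in each ALKBH7 group, and CCT6A ILMN_1719611 on 2 of 3 uninduced ALKBH7 arrays. The 2 TCP1 pairs that held the dim probe ILMN_2313434 did not pass (limma adjusted p = 0.107 and 0.116). Without uninduced replicate 1 of the ALKBH7 line 7 of the 8 pairs passed, against 53.8% of all pairs. The pairs gained were TCP1 ILMN_1660661 minus ILMN_2313434, at -1.29 (limma adjusted p = 0.00241), and CCT7 ILMN_2341793 minus ILMN_1703718, at -1.17 (limma adjusted p = 0.00658). On induction of ALKBH4 none of the 8 pairs passed, against 0% of all pairs, and 1 of the 8 had an unadjusted p under 0.05.

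**Figure D3:**
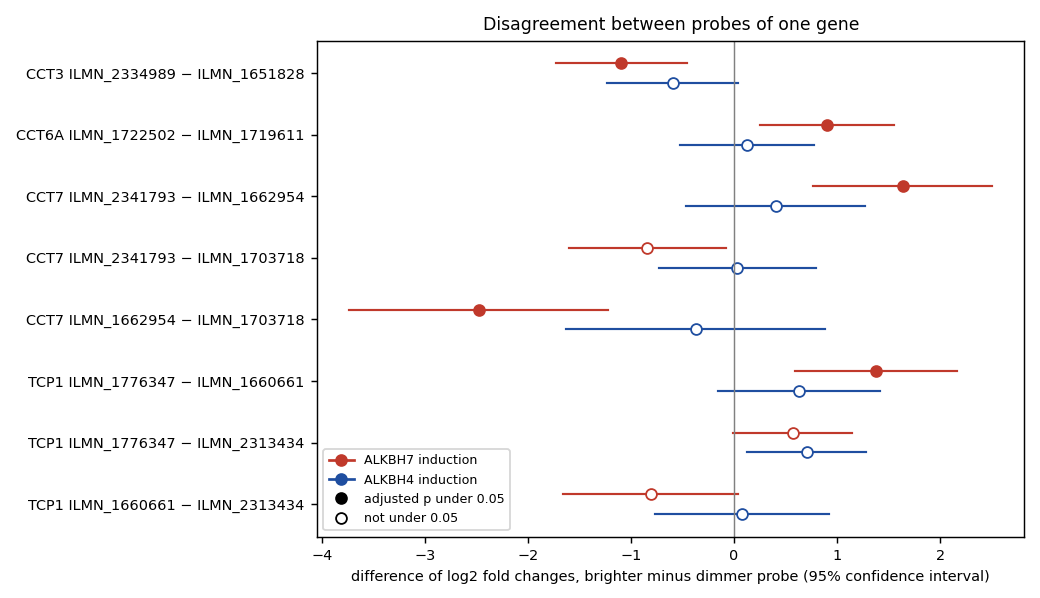
Difference between the log2 fold changes of 2 probes of one gene, brighter minus dimmer (horizontal axis), for the 8 chaperonin probe pairs in the ALKBH7 line (red) and the ALKBH4 line (blue), with 95% confidence intervals from limma; filled points have an adjusted p under 0.05. The 2 CCT7 pairs that hold ILMN_1662954 lie at 1.64 and -2.48 in the ALKBH7 line.

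Over the 12 arrays the probes of one gene often did not follow each other, a description that mixes line, induction and array differences. Pearson's r was 0.78 for the CCT6A pair and -0.53 for the CCT3 pair. For TCP1 it was 0.76, -0.05 and -0.52 over the 3 pairs. For CCT7 it was 0.75 between ILMN_2341793 and ILMN_1662954, 0.21 between the probes of the shared transcript and -0.07 for the third pair. The median over all 3343 pairs was 0.43.

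Some probes of different subunits followed each other more closely than some probes of one subunit. TCP1 ILMN_1660661 and CCT6A ILMN_1719611 had r = 0.99 over the 12 arrays, and CCT2 and CCT7 ILMN_1662954 had r = 0.96. TCP1 ILMN_1776347 had r = 0.94 with CCT6A ILMN_1722502 and with CCT3 ILMN_1651828. All 3 of these probes rose on ALKBH7 induction and were called lower in the uninduced ALKBH7 line than in the uninduced ALKBH4 line. Their r values include these group differences and are no separate evidence that they varied together. The remaining probe that rose, TCP1 ILMN_2313434, had r between -0.13 and 0.10 with these 3. CCT4 and CCT8 had r = 0.91. These high values were picked from all pairs of member probes, of which others ran in opposite directions. TCP1 ILMN_2313434 had r = -0.87 with CCT7 ILMN_2341793 and r = -0.69 with CCT2.

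The probes of other genes most like each CCT7 probe differed too. Those nearest ILMN_1662954 over the 12 arrays were for MORF4L2 (r = 0.99), the mitochondrial peroxiredoxin PRDX3 (r = 0.99) and FAF1 (r = 0.99). Their log2 fold changes on ALKBH7 induction were -1.91, -1.90 and -1.91. Since they were chosen by likeness over the same arrays, closeness of these values to the CCT7 probe's is no separate result. Those nearest ILMN_1703718 were for the proteasome subunit PSMA3 (r = 0.96), the sialic acid synthase NANS (r = 0.96) and ABHD17B (r = 0.95). Those nearest ILMN_2341793 were for SNX15, TTLL7 and PHLPP2 (r between 0.90 and 0.91). The mean of the brightest probe of each subunit was most like TWSG1, RYK, CAP2, PDHX and SLC16A14 (r between 0.98 and 0.99).

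Before any induction the lines differed at several chaperonin probes. In the uninduced ALKBH7 line 7 of the 14 probes were lower than in the uninduced ALKBH4 line and none was higher, against 38.4% of all tested probes (19.9% higher and 18.5% lower). The cell line and anything processed by line, such as the brightness of its arrays given above, cannot be told apart. The median over the 14 probes was -0.75, and over all tested probes -0.03.

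TCP1 ILMN_1660661 was at 6.46, 7.79 and 7.71 in uninduced ALKBH7 cells and at 9.65, 8.90 and 9.35 in uninduced ALKBH4 cells, a difference of -1.98 ± 0.37 (SE, limma adjusted p = 0.00153). TCP1 ILMN_1776347 was at 7.82, 7.74 and 7.73 in uninduced ALKBH7 cells and at 9.80, 8.62 and 9.78 in uninduced ALKBH4 cells, a difference of -1.64 ± 0.30 (SE, limma adjusted p = 0.00121). No array of one line reached the other line's range at either probe. The dim TCP1 probe ILMN_2313434, at 6.95, 6.97 and 6.58 in uninduced ALKBH7 cells and at 6.84, 6.68 and 7.04 in uninduced ALKBH4 cells, differed by -0.02 ± 0.14 (SE, limma adjusted p = 0.937).

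Both CCT6A probes were lower, with a difference of -1.51 ± 0.35 (SE, limma adjusted p = 0.00504) at ILMN_1719611 and of -1.003 ± 0.19 (SE, limma adjusted p = 0.00164) at ILMN_1722502. CCT7 ILMN_1703718 differed by -0.92 ± 0.25 (SE, limma adjusted p = 0.0131), CCT3 ILMN_1651828 by -0.83 ± 0.20 (SE, limma adjusted p = 0.00583) and CCT4 by -0.66 ± 0.20 (SE, limma adjusted p = 0.0194). At all 5 of these probes every uninduced ALKBH7 array was below every uninduced ALKBH4 array. The same held at CCT2 and CCT8, which did not pass, so that 9 of the 14 probes were separate, all lower. The share of all tested probes with separate groups is not given here, so this count is only a description. CCT7 ILMN_1662954 differed by -0.93 ± 0.44 (SE, limma adjusted p = 0.109), CCT2 by -0.50 ± 0.19 (SE, limma adjusted p = 0.0521) and CCT8 by -0.43 ± 0.19 (SE, limma adjusted p = 0.0897), and CCT5 by -0.29 ± 0.14 (SE, limma adjusted p = 0.114). Without uninduced replicate 1 of the ALKBH7 line the differences were -0.21 for CCT7 ILMN_1662954, -0.22 for CCT2, -0.14 for CCT8 and -0.40 for CCT4, of which CCT4 alone passed (limma adjusted p = 0.0409). Without uninduced replicate 2 or 3 of that line, CCT7 ILMN_1662954, CCT2 and CCT8 passed (limma adjusted p between 0.0236 and 0.0439). Without uninduced replicate 1 of the ALKBH4 line CCT4 and CCT7 ILMN_1703718 lost their calls (limma adjusted p = 0.0663 and 0.0617), and without replicate 2 CCT4 did (limma adjusted p = 0.0561). CCT3 ILMN_2334989 and CCT7 ILMN_2341793 differed by 0.04 ± 0.15 and 0.02 ± 0.17 (SE, limma adjusted p = 0.841 and 0.934).

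The difference between 2 probes of one gene passed at 3 of the 8 chaperonin pairs in this comparison, against 25.9% of all pairs. They were TCP1 ILMN_1776347 minus ILMN_2313434 at -1.62 (limma adjusted p = 0.00187), TCP1 ILMN_1660661 minus ILMN_2313434 at -1.96 (limma adjusted p = 0.00466) and the CCT3 pair at 0.88 (limma adjusted p = 0.0435). The dim TCP1 probe thus stood apart from both other TCP1 probes, which were lower in the uninduced ALKBH7 line while it was not. With means of 6.84 and 6.85 it lay close to background in both uninduced lines. Whether this probe could have shown a fall of the size seen at the others was not tested.

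The partners of the chaperonin were read at the brightest probe of each gene, in lists chosen with earlier results of these data known. On ALKBH7 induction 12.4% of the 10159 genes measured in this way were higher and 10.4% lower, with a median log2 fold change of 0.05. Of the 8 subunits themselves 2 rose, TCP1 and CCT6A, and 6 did not pass, with a median of 0.14. Since the brightest CCT7 probe is ILMN_2341793, the fall of ILMN_1662954 does not enter this reading.

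Of 5 prefoldin subunits measured, 2 rose, 1 fell and 2 did not pass (median 0.32). PFDN5, known as the MYC-binding prefoldin subunit MM-1, was at 12.80, 12.52 and 12.56 in induced ALKBH7 cells and at 12.12, 11.31 and 11.49 in uninduced ones, a change of 0.99 ± 0.21 (SE, limma adjusted p = 0.00746). PFDN1 was at 10.06, 10.01 and 10.68 in induced cells and at 10.90, 11.20 and 11.08 in uninduced ones, and fell by 0.81 (limma adjusted p = 0.00703). PFDN6 also rose, by 0.96. The probes read for PFDN5 and PFDN1 thus moved in opposite directions, with no overlap between the groups at either. Each gene was read at 1 probe here.

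Of 3 phosducin-like cofactors 1 rose and 2 did not pass (median 0.30). PDCL3 was at 8.66, 8.59 and 8.61 in induced ALKBH7 cells and at 8.29, 7.86 and 7.71 in uninduced ones, a change of 0.67 ± 0.16 (SE, limma adjusted p = 0.0116). TXNDC9, which inhibits the ATPase of the chaperonin, changed by 0.30 ± 0.24 (SE, limma adjusted p = 0.374).

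Of 6 related chaperonins 2 rose, 1 fell and 3 did not pass (median 0.15). HSPD1 and its lid HSPE1 form the chaperonin of mitochondria. HSPE1 was at 12.14, 12.20 and 12.15 in induced ALKBH7 cells and at 11.70, 11.14 and 11.21 in uninduced ones, a change of 0.81 ± 0.18 (SE, limma adjusted p = 0.00781). HSPD1 was at 12.75, 12.74 and 12.65 in induced cells and at 11.81, 12.16 and 12.25 in uninduced ones, a change of 0.64 ± 0.16 (SE, limma adjusted p = 0.0136). Every induced array was above every uninduced array for both. BBS10, a chaperonin-like protein of the Bardet-Biedl syndrome, fell by 0.54 (limma adjusted p = 0.0316).

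Of 13 actin and tubulin genes 3 rose, 1 fell and 9 did not pass (median 0.28). TUBA1C, an alpha tubulin, was at 12.65, 12.57 and 13.10 in induced ALKBH7 cells and at 13.03, 14.01 and 14.23 in uninduced ones, and fell by 0.98 (limma adjusted p = 0.0143). Its uninduced replicate 1 lay within the induced range. TUBB4B, a beta tubulin, was at 11.56, 11.65 and 11.67 in induced cells and at 11.42, 11.05 and 10.75 in uninduced ones, a change of 0.56 ± 0.17 (SE, limma adjusted p = 0.0345). The other tubulins that rose were TUBB2A and TUBB3, by 0.63 and 0.59, while ACTB and ACTG1, the cytoplasmic actins, had values of 0.28 and 0.02 that did not pass.

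None of the 5 tubulin folding cofactors passed (median 0.0039), the largest values being those of TBCA, 0.25 ± 0.14 (SE, limma adjusted p = 0.182), and TBCB, 0.18 ± 0.14 (SE, limma adjusted p = 0.387). Of 15 other clients 2 rose, 1 fell and 12 did not pass (median 0.20). CCNE1, the G1/S cyclin E, was at 11.09, 10.82 and 10.78 in induced ALKBH7 cells and at 10.22, 10.06 and 9.87 in uninduced ones, a change of 0.85 ± 0.13 (SE, limma adjusted p = 0.00208). CDC20, the mitotic activator of the anaphase-promoting complex, was at 12.22, 12.32 and 11.99 in induced cells and at 11.90, 11.30 and 11.12 in uninduced ones, a change of 0.74 ± 0.18 (SE, limma adjusted p = 0.0112). MLST8, a subunit of the mTOR complexes, fell by 0.46 (limma adjusted p = 0.0427). On ALKBH4 induction no gene of any of these lists passed, and 0% of the 10159 genes did.

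**Figure D4:**
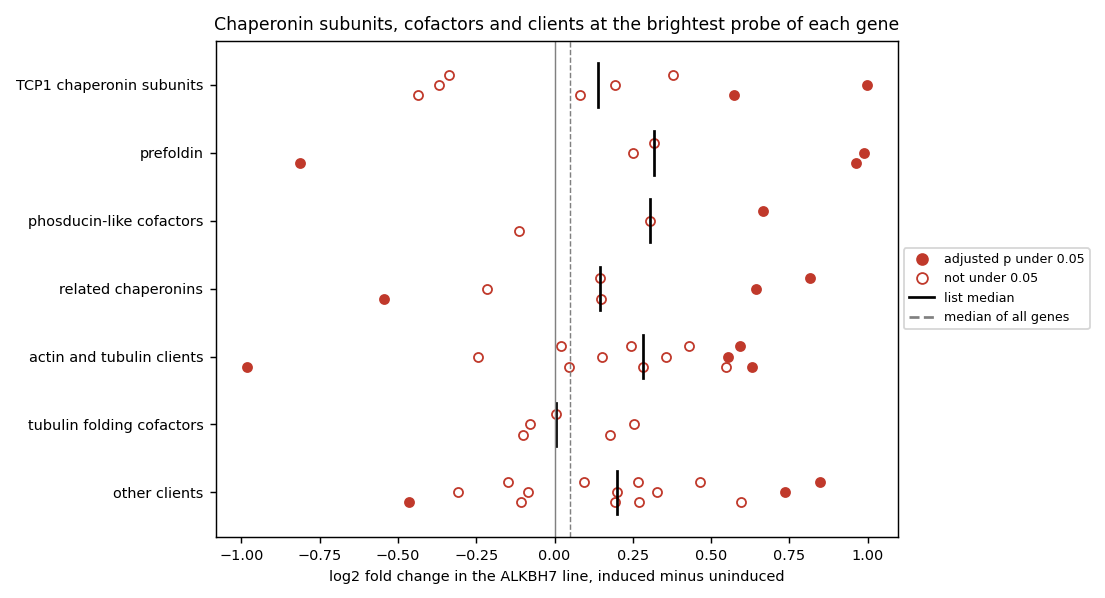
Log2 fold change in the ALKBH7 line, induced minus uninduced (horizontal axis), at the brightest probe of each gene for the chaperonin subunits and 6 lists of cofactors, related chaperonins and clients; points are genes, filled where limma's adjusted p is under 0.05, black bars are list medians and the dashed line is the median of all genes at 0.05. Filled points lie on both sides of 0 in the prefoldin, related chaperonin, actin and tubulin, and other client lists.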

How the data were processed

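Total RNA of 12 HEK293 samples, 3 in each of 4 groups taken from the sample titles, was measured on HumanWG-6 v3 BeadChips of Illumina, and the number of arrays limits the precision. The authors exported intensities from GenomeStudio with no normalization, and the deposited table gives for each probe and array this intensity and a detection p-value. The normalized intensities that the authors deposited were quantile normalized line by line in J-Express and served as an alternative only. No sample column lacked a group (0 such columns).

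The deposited intensities of the 12 arrays were quantile normalized together, without background correction, and then log2 transformed. Probes detected at p under 0.01 on at least 3 arrays were fitted with limma 3.58.1 in R 4.3.3 (lmFit, eBayes, 4 group means, Benjamini-Hochberg threshold 0.05 over all 15444 probes). Figures were drawn with Python 3.11.15 and matplotlib 3.10.9. Of the 48803 probes 27578 had 1 gene symbol, 13 several and 21212 none, and probes with several were not named. The model was tested on simulated data.

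The member genes and all lists were chosen with earlier results of these data known. Named were all member probes, the 2 genes of each list with the largest moderated t in the ALKBH7 line, and the 3 probes most like each CCT7 probe or 5 most like the subunits' mean. PFDN6, BBS10, TUBB2A, TUBB3, MLST8, ACTB and ACTG1 were named after their values were seen. Alternatives were normexp background correction (offset 50), median scaling, cyclic loess, the authors' values, other detection filters, 16 added before the logarithm, each line alone, a replicate block, array weights, an eBayes fit with trend and robust, each array left out in turn, and rank product, the test of the study (q-value under 0.05, fold above 2 in the ALKBH7 line and 1.35 in the ALKBH4 line, 100 permutations). Median scaling relative to all tested probes and 2 uninduced arrays left out together were added after seeing the data.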

Additional observations from a re-analysis of the deposited data

How the results depend on the processing

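Counts of chaperonin calls depended on the setting. On ALKBH7 induction 5 of the 14 probes (4 higher, 1 lower) and 5 of the 8 pairs passed. The probe count, with the share of all tested probes called, was 0 (0.00648%) under median scaling, 2 (21.7%) under cyclic loess, 1 higher and 1 lower, 3 (17.9%) with the authors' values, 2 higher and 1 lower, 3 (6.46%) with no filter, 2 (11.3%) with each line fitted alone, 1 (1.87%) by rank product, CCT7 ILMN_1662954, lower, and 3 (12.8%) with uninduced replicates 2 and 3 left out. Array weights, which gave uninduced replicate 1 a weight of 0.109, raised it to 12 (55.6%), 6 in each direction. With 1 array left out it lay between 1 and 9 (8.09% to 44.2%). The pair count was 3 among probes detected on all 12 arrays, where 1567 pairs were tested and 42.0% called, 8 (66.5% of all pairs) with array weights, 0 (1.05%) with uninduced replicates 2 and 3 left out, and 2 to 7 with 1 array left out. The difference between inductions, with 0 calls, gave 10 (41.6% of all tested probes) with array weights and 0 to 2 with 1 array left out. ALKBH4 induction gave 0 calls at probes and pairs under every alternative, and the uninduced lines gave 5 to 10 with 1 array left out. Beyond the single arrays, the call of CCT7 ILMN_1662954 was lost with each line alone (limma adjusted p = 0.0547), under median scaling (limma adjusted p = 0.194) and with uninduced replicates 2 and 3 left out (limma adjusted p = 0.220). The cause was not tested.

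Whether the replicate numbers pair the samples is not stated in the labels. In the ALKBH7 line deviations of samples with the same number correlated at 0.41, -0.12 and 0.17, and those with different numbers at -0.37 to 0.35. In the ALKBH4 line the values were -0.13, 0.26 and 0.11 for the same number, and -0.47 to 0.38 for different numbers. So few values cannot settle whether the samples were paired. With the number as a block 3 probes (21.6% of all tested probes) passed on ALKBH7 induction.

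Of 1026 values of single probes and pairs under alternatives, 885 were counted as unchanged and 24 as turned in direction. Unchanged meant the same direction and side of the threshold. Median scaling relative to all tested probes had no p-value, and there a move smaller than the spread between arrays counted as unchanged. The 8 larger moves there are in neither count. Median scaling, which moved the median of all tested probes to 0.07 on ALKBH7 induction, 0.28 on ALKBH4 induction and -0.24 between uninduced lines, gave 0.11 for CCT3 ILMN_2334989 and 0.11 for CCT7 ILMN_2341793 on ALKBH7 induction. It gave 0.080 for CCT7 ILMN_1662954, 0.064 for CCT2 and 0.14 for CCT3 ILMN_2334989 on ALKBH4 induction, and -0.69 for CCT3 ILMN_2334989 and -0.71 for CCT7 ILMN_2341793 between uninduced lines. The authors' values, normalized line by line, were not used between uninduced lines. Array weights gave -0.17 for CCT8 on ALKBH7 induction. With uninduced replicates 2 and 3 left out, ALKBH7 induction gave 0.48 for TCP1 ILMN_1660661, 0.12 for CCT2, 0.56 for CCT6A ILMN_1719611 and 0.17 for TCP1 ILMN_1660661 minus ILMN_2313434, and the uninduced lines gave 0.10 for TCP1 ILMN_2313434, -0.26 for CCT3 ILMN_2334989 and -0.21 for CCT7 ILMN_2341793. With 1 array left out, ALKBH7 induction ranged over -0.21 to 0.23 for CCT8 and -0.070 to 0.33 for CCT4, and the uninduced lines over -0.10 to 0.11 for TCP1 ILMN_2313434, -0.044 to 0.19 for CCT3 ILMN_2334989 and -0.17 to 0.14 for CCT7 ILMN_2341793.

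Precision was limited by 3 arrays a group and by signal over background at TCP1 ILMN_2313434, TCP1 ILMN_1660661 and CCT6A ILMN_1719611, which were not detected on every array.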
